A study of Mus musculus with 3 samples.

Results

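The genes of the major histocompatibility complex (MHC) and their helpers were described in 3 polyA-selected RNA-seq libraries of mouse activated regulatory T cells. Members were the 45 genes whose symbol starts with H2-, plus B2m, Tap1, Tap2, Tapbp, Nlrc5, Ciita and Cd74, which made 52 of 55536 annotated genes. The labels give an adult male mouse of 4 months from the strain Foxp3CreERT2 x Rosa26YFP. In this strain the Foxp3 gene drives a tamoxifen-inducible Cre and the Rosa26 locus carries a YFP reporter. Per the labels all libraries are technical replicates, numbered 1, 2 and 3, of 1 biological replicate. The spread between them covers what differed between these libraries and cannot be read as spread between animals. Whether the libraries came from separate animals or cultures cannot be told. There is 1 group and no control. The labels also give bone marrow hematopoietic cells as the origin, and say nothing of the sort, of how the cells were activated or of the MHC haplotype of the mouse.

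MHC class I molecules sit on nearly all nucleated cells and show peptides made inside the cell to CD8 T cells and natural killer cells. Each consists of a heavy chain and beta-2 microglobulin, encoded by B2m. The classical (class Ia) heavy chains are H2-K1 and H2-D1, and the many class Ib genes of the Q, T and M regions vary less between strains and often have narrower tasks. Tap1 and Tap2 form the pump that brings peptides into the endoplasmic reticulum, where tapasin (Tapbp) helps to load them. Class II molecules pair an alpha with a beta chain, carry peptides from the endosome to CD4 T cells, and are best known from B cells, dendritic cells and macrophages. Mouse T cells, unlike activated human T cells, are generally held to make little class II of their own. NLRC5 and CIITA are the related transactivators of class I and class II genes.

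Both transactivators act through a shared promoter module with an X box and a Y box, bound by the RFX complex, CREB-like factors and NF-Y. RefSeq promoters of GRCm38.p6, from 250 bases before to 50 bases after the start, were held for 35 of the 52 members. The letters TGACG are typical of the CREB-bound part of the X box. ATTGG is the NF-Y motif of the Y box. In 6 of these 35 genes TGACG was followed by ATTGG on the gene's own strand, with 19 to 21 bases between them. The same arrangement stood in 38 of 32851 promoters of that length, or 0.116%. This spacing was looked for after the single motifs had been placed, and the match is a description of letters. The 6 windows are shown because they join the class I partner, both class Ia genes, 2 class Ib genes and a class II chain by sequence. Capitals mark TGACG and ATTGG, and all read 5′ to 3′ on the gene's strand.
B2m, chr2:122147564-122147646, plus strand: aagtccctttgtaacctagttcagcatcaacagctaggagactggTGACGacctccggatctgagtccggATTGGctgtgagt
H2-K1, chr17:34000351-34000433, minus strand: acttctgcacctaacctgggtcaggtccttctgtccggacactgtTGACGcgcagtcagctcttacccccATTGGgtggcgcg
H2-D1, chr17:35262948-35263030, plus strand: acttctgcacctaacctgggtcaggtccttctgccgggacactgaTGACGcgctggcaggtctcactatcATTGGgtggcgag
H2-Q7, chr17:35439046-35439127, plus strand: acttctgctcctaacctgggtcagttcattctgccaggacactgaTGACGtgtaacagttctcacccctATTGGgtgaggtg
H2-M3, chr17:37270143-37270225, plus strand: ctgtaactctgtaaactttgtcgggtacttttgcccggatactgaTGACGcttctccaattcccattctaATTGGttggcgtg
H2-Aa, chr17:34287859-34287942, minus strand: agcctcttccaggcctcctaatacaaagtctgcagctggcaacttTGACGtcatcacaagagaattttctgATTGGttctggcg

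Searched singly on both strands, CCAAT stood in 32 of the 35 member genes and in 37.4% of all promoters. TGACG stood in 14 of 35, against 20.8% of all promoters. The interferon-response type motif GAAANNGAA was found in 3 of 35 (B2m, H2-T22 and H2-T23), against 8.56%. The STAT-type motif TTCNNNGAA was found in 3 of 35, against 8.30%, and the NF-kappaB-type motif GGAANTTCC in 1 of 35, against 0.928%. Some promoters resemble each other, as the windows of H2-K1 and H2-D1 show, and some genes have more than 1 listed start, so the 35 are not independent of each other.

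Of the 52 members, 31 were detected, meaning a level of at least 1 TPM (transcripts scaled to a fixed total per library, a level per length) in each library. A mean of at least 10 TPM was reached by 27, and at least 100 TPM by 14. Among the other 21, 13 had no fragment in any library and the highest single value was 0.78 TPM. Together the members took 1.92%, 1.91% and 1.80% of the gene fragments of replicates 1, 2 and 3, out of 10981924, 9700630 and 6667391. At these depths a count of 0 allows up to 3 counts, or 0.273, 0.309 and 0.450 CPM (counts scaled by the library total), for counting error only. All 9 genes of a T cell and regulatory T cell list were detected, Foxp3 among them at 29.5, 28.7 and 49.8 TPM. Detection asks for only 1 TPM and there is no control, so this does not test the regulatory T cell label. The summed TPM of that list was 7394, 7414 and 5288 and was lowest in replicate 3, as were 7 of its 9 genes. Ctla4 went the other way, at 190, 250 and 612 TPM. In the chi-square test described below, all 9 were called against sampling noise, beside 65.3% of all genes tested. Ctla4 was the 1 gene of that list called between libraries with edgeR's trended dispersion (adjusted p = 4.09e-05), beside 1.31% of all genes.

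**Figure D1:**
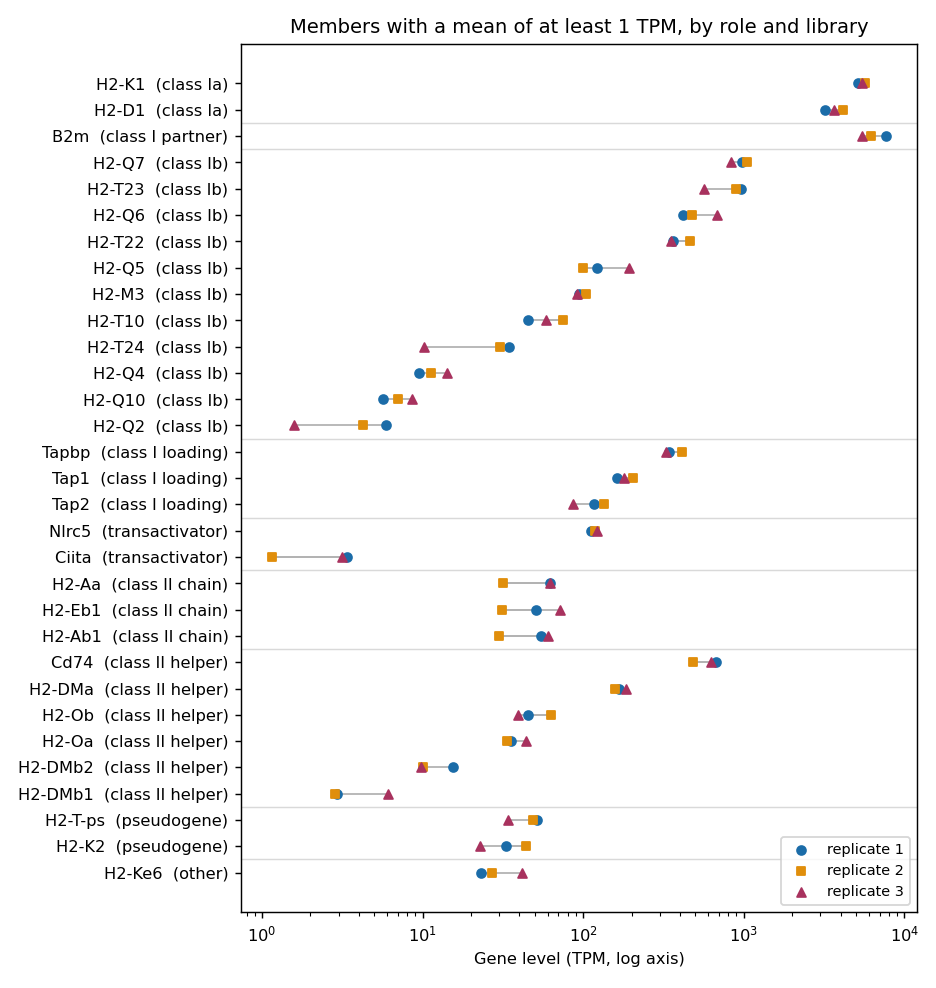
Gene level in TPM (log axis) of the 31 members with a mean of at least 1 TPM, grouped by role; each point is 1 library. Class Ia genes and B2m lie at 3216 TPM or more in every library, the class II chains between 30 and 72 TPM, with replicate 2 lowest in all 3 chains.

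B2m was the most abundant member and ranked 8th among all genes by mean TPM. Its level was 7703, 6227 and 5439 TPM in replicates 1, 2 and 3 (6456 ± 1149, SD, n = 3). H2-K1, on chromosome 17 from 33996017 to 34000347 (mm10, minus strand), stood at 5168, 5707 and 5414 TPM, a mean of 5429 ± 270 (SD, n = 3). H2-D1, from 35262730 to 35267499 on the plus strand of the same chromosome, stood at 3216, 4122 and 3650 TPM, or 3663 ± 453. H2-K1 was above H2-D1 in each library and their ranges did not overlap. B2m was above H2-K1 in each library too, by a narrow margin in replicate 3, and their ranges overlapped. By mean TPM H2-K1 ranked 18th and H2-D1 26th of all genes.

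H2-K1 and H2-D1 changed places with coding transcripts alone and with counts divided by coding bases. H2-K1 made up 61.6%, 58.1% and 59.7% of their joint gene TPM (59.8 ± 1.79, SD, n = 3). Counted as fragments, H2-K1 held 46.0%, 42.3% and 41.4% of the pair (95% Wilson intervals 45.6 to 46.3, 42.0 to 42.6 and 41.0 to 41.8, counting error only). H2-D1 thus had more fragments in each library. Fragments are not divided by length, however, and the main H2-D1 transcript has 2102 bases against 1619 for H2-K1-201. The fragment shares alone therefore do not give the order of the levels. With only transcripts annotated as coding, H2-K1 held 46.2%, 41.2% and 37.1% of the TPM, and in the deposited counts on the older annotation, divided by coding bases, 46.0%, 42.3% and 39.9%. The order of the pair thus depended on the table.

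The transcript models behind the gene TPM differed in type between H2-K1 and H2-D1. Transcripts annotated as retained introns held 52.6 ± 7.19% of the H2-K1 TPM (SD, n = 3), against 1.28 ± 0.0319% for H2-D1. The largest of them by TPM is 457 bases long, stood at 1373 ± 31.6 TPM and took 25.3% of the gene's TPM. The main coding transcript H2-K1-201 (1619 bases) stood at 1458 ± 379 TPM and H2-K1-205 at 614 ± 69.4 TPM, while H2-D1-202 (2102 bases) alone stood at 3303 ± 403 TPM. Since TPM divides by length, fragments assigned to a short transcript raise a gene's TPM more than the same number assigned to a long one.

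**Figure D2:**
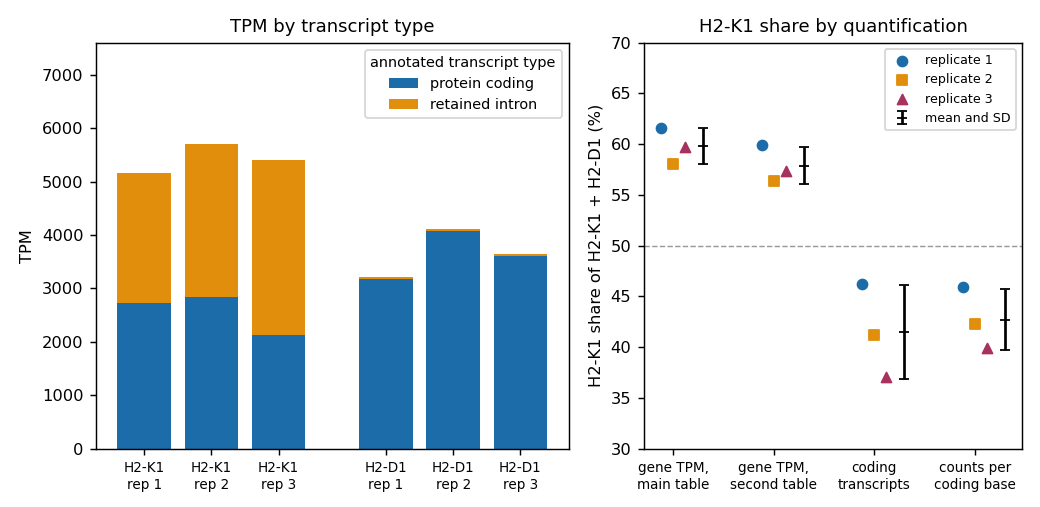
Left, TPM of H2-K1 and H2-D1 per library as stacked bars by annotated transcript type; right, the H2-K1 share of the joint level under 4 quantifications, with the mean and SD of the 3 libraries. Retained-intron models make up 52.6% of H2-K1 TPM on average. The share is above 50% in both gene TPM tables and below it with coding transcripts alone and with counts per coding base.

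Class Ib heavy chains stood below these, with H2-Q7, H2-T23, H2-Q6 and H2-T22 the highest in gene TPM. H2-Q7, a Qa-2 gene whose product can be anchored by a lipid, stood at 971, 1042 and 837 TPM. H2-T23, which encodes Qa-1, the ligand of the CD94/NKG2A receptor, stood at 964, 891 and 569 TPM and was lowest in replicate 3. The order of H2-Q7 and H2-T23 depended on the table. With coding transcripts alone H2-T23 was above H2-Q7 in each library, at 868, 799 and 509 against 702, 725 and 496 TPM, and so it was per coding base. H2-Q6, also a Qa-2 gene, stood at 417, 476 and 680 TPM and was highest in replicate 3. H2-T22, a ligand of some gamma-delta T cell receptors, stood at 360, 462 and 351 TPM. Replicate 3 thus had the lowest value for 3 of these 4 genes and the highest for H2-Q6.

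Lower class Ib levels followed in H2-Q5 with 121, 99.8 and 193 TPM. H2-M3, which presents N-formylated peptides, stood at 94.3, 104 and 92.0 TPM. Its spread was the smallest of the class Ib genes detected, with 1.04-fold between the highest and lowest CPM. H2-T10, a near copy of H2-T22, stood at 45.5, 75.2 and 58.8 TPM. Both H2-Q5 and H2-T10 are annotated as polymorphic pseudogenes, and the H2-T10 transcript annotated as protein-coding held 0 TPM. H2-T24 stood at 34.3, 30.5 and 10.16 TPM and H2-Q4 at 9.50, 11.3 and 14.1 TPM. H2-Q10 stood at 5.70, 7.03 and 8.60 TPM and H2-Q2 at 5.87, 4.28 and 1.59 TPM. H2-T24 and H2-Q2 were low in replicate 3, while H2-Q4 and H2-Q10 were highest there.

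Summed over their 25 genes, class Ib heavy chains reached 3029, 3204 and 2816 TPM, against 8384, 9829 and 9064 TPM for the 2 class Ia genes. Class Ia made up 73.5%, 75.4% and 76.3% of all class I heavy chain TPM (75.1 ± 1.45, SD, n = 3). The log2 ratio of B2m to summed heavy chains was -0.57, -1.07 and -1.13, so B2m stood below the heavy chain sum in each library, most closely in replicate 1. Of the 14 genes with M-region symbols, 13 besides H2-M3 held at most 2 fragments in any library and 10 of them held none. Among pseudogenes other than the polymorphic ones, H2-T-ps stood at 51.7, 49.0 and 33.9 TPM and H2-K2 at 33.1, 44.1 and 22.8 TPM. The other 5 were at or under 3 fragments. H2-Ke6, a steroid dehydrogenase gene that carries the prefix by its place in the MHC and not by function, stood at 23.03, 27.1 and 41.5 TPM.

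**Figure D3:**
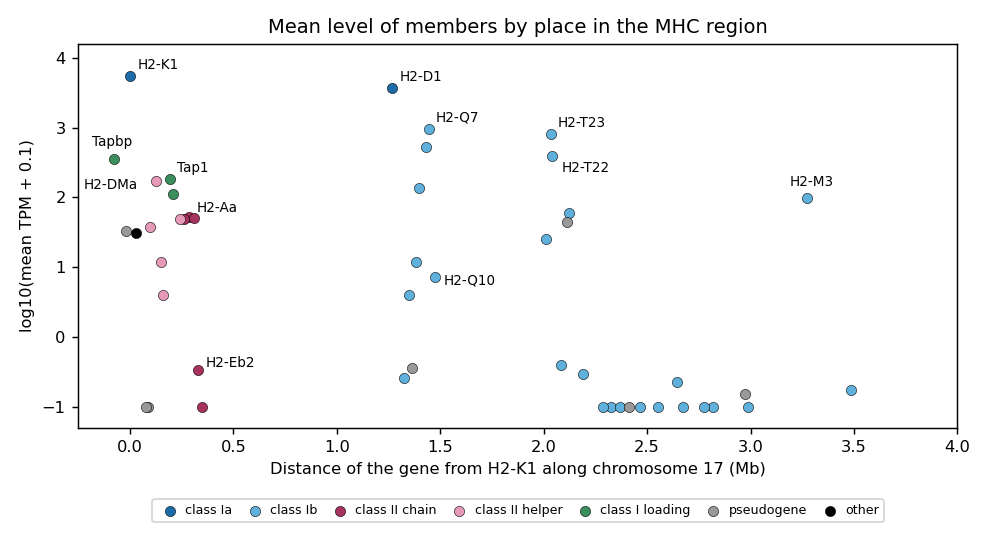
Mean level as log10(TPM + 0.1) of the 48 members on chromosome 17 against distance from H2-K1 in megabases; colours give the role. Genes of the K, D, Q and T regions include the high levels, while M-region genes other than H2-M3 lie at or near the bottom line, which marks 0 TPM.

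Some of these levels rest on splitting fragments between near copies. Stretches of 100 bases shared with another gene occurred in the leading transcript of 16 of the 31 detected members, and made up over 10% of it in 9. H2-Q7 shared 21.9% of its stretches, 11.9% with H2-Q6, and the coding sequences of H2-Q6 and H2-Q7 differed at 42 of 977 aligned bases (95.7% identity). H2-T10 and H2-T22 differed at 11 of 637 aligned coding bases (98.3%). The leading transcript of H2-K1 shared no such stretch and that of H2-D1 4.64%, although the coding sequences of the pair were 92.2% identical. The leading transcripts of B2m, Cd74, H2-Aa, H2-Ab1 and H2-Eb1 shared none. A gene's other transcripts were not searched, and H2-K1-201 held 26.9% of the H2-K1 TPM.

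The 60 coding bases at which H2-Q6 and H2-Q7 differ most show what separates a pair of such copies. They are printed from the GENCODE release M21 transcripts, with capitals at the 8 bases that differ.
H2-Q6, coding bases 885 to 944: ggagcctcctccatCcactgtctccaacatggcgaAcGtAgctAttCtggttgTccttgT
H2-Q7, coding bases 894 to 953: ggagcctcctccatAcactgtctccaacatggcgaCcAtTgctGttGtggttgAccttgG
The order of this pair depended on the table. The log2 ratio of H2-Q7 to H2-Q6 was 1.22, 1.13 and 0.30 in gene TPM, which put H2-Q7 first in all 3 libraries. From counts per coding base it was 0.87, 0.74 and -0.18, and from coding transcripts alone 0.75, 0.61 and -0.46. Replicate 3 therefore had H2-Q6 first in both of these latter readings.

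For most members the deposited posterior SD of the count, which measures how uncertain that split is, was small. In replicate 1 it was 0.0365% of the count for H2-K1, 0.0359% for H2-D1, 0.143% for H2-Q7 and 0.247% for H2-T22. It was larger for H2-Q5 (1.52%), H2-Q10 (2.30%), H2-Ke6 (2.60%) and H2-DMb1 (7.45%). H2-Q5-201, a transcript of 172 bases, shared all its stretches with H2-Q7 and took 41.9% of the H2-Q5 TPM on average. For H2-Q10, 96.8% of the TPM lay in the retained-intron transcript H2-Q10-203, and the older annotation's table gave 8, 14 and 4 counts where the main table gave 209, 207 and 191 and the second table held 1199, 1256 and 936. For H2-Q4, 93.9% lay in the retained-intron transcript H2-Q4-202. Retained-intron transcripts also held 33.0 ± 6.89% of the H2-Q7 TPM, 22.6 ± 5.12% of that of H2-T10 and 10.24 ± 0.271% of that of H2-T23 (SD, n = 3). The H2-Q6 TPM lay wholly in the coding transcript H2-Q6-202. These levels of H2-Q4, H2-Q5 and H2-Q10 are uncertain as levels of coding RNA, and reads from alleles of another MHC haplotype, were the mouse to carry one, would be counted on the same models; this was not tested.

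Class I loading genes stood below both class Ia genes and within the range of the class Ib genes. Tapbp stood at 342, 412 and 327 TPM, Tap1 at 162, 204 and 180 TPM and Tap2 at 116, 134 and 86.3 TPM. Tap1 was above Tap2 in each library, with log2 ratios of 0.48, 0.60 and 1.06. In Tap2, 79.0% of the TPM lay in the retained-intron transcript Tap2-202 and the coding transcript Tap2-201 stood at 23.6 ± 5.39 TPM. In Tap1, 80.9% lay in coding transcripts, led by a transcript of 2953 bases at 113 ± 27.96 TPM. With coding transcripts alone the log2 ratio of Tap1 to Tap2 rose to 2.66 ± 0.30 (SD, n = 3).

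The class I transactivator Nlrc5 stood at 111, 119 and 122 TPM, or 117 ± 5.53 (SD, n = 3). Ciita, the class II transactivator, stood at 3.36, 1.15 and 3.16 TPM and was lowest in replicate 2. The log2 ratio of Nlrc5 to Ciita was 5.05, 6.69 and 5.27. For Nlrc5 too, the retained-intron transcript Nlrc5-203 took 52.9% of the TPM and the coding Nlrc5-207, of 7578 bases, 21.6% at 25.2 ± 5.87 TPM. Counting coding transcripts alone, the ratio was 2.94, 4.88 and 2.89 on the log2 scale, so Nlrc5 stayed above Ciita in each library.

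Class II chains were present at low levels. H2-Aa, the alpha chain of the I-A molecule, stood at 62.2, 31.4 and 62.2 TPM. H2-Ab1, its beta chain, stood at 54.8, 30.1 and 60.02 TPM. H2-Eb1, the beta chain of I-E, stood at 50.8, 31.1 and 71.2 TPM. Replicate 2 was lowest for all 3. The I-A chains ran close together, with log2 ratios of H2-Aa to H2-Ab1 of 0.18, 0.06 and 0.05. H2-Eb2 held 8, 3 and 5 fragments (0.28, 0.13 and 0.29 TPM), and H2-Ea-ps, the gene model for the I-E alpha chain, held none in any library.

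Little of the H2-Eb1 TPM was assigned to transcripts annotated as coding in release M21. The transcript H2-Eb1-205, annotated as a target of nonsense-mediated decay, held 50.8% of its TPM, and retained-intron transcripts held 41.4 ± 13.3% (SD, n = 3). Coding transcripts held 7.77 ± 1.54%. By contrast 98.8% of H2-Aa and 95.9% of H2-Ab1 TPM lay in coding transcripts. These shares rest on how fragments were split between the transcript models. Gene counts on the older annotation were alike for the 3 genes relative to the main counts. In replicate 1 they were 1.54 times the main count for H2-Eb1, 1.61 times for H2-Aa and 1.51 times for H2-Ab1. Such gene totals do not separate transcript types, and whether they were limited to coding bases was not tested. They therefore cannot decide how much H2-Eb1 RNA was coding.

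Summed class I heavy chains exceeded the summed class II chains by 6.09, 7.14 and 5.94 on the log2 scale (6.39 ± 0.65, SD, n = 3), the gap being widest in replicate 2. The 6 class II helpers summed to 941, 751 and 906 TPM, above the 168, 92.7 and 194 TPM of the 5 chain genes, and most of that sum was Cd74. Cd74, the invariant chain, stood at 676, 484 and 622 TPM, above H2-Aa by 3.44, 3.95 and 3.32 on the log2 scale. H2-DMa, the alpha chain of the peptide exchanger DM, stood at 166, 157 and 186 TPM. Its beta chains were far lower, with H2-DMb2 at 15.5, 10.02 and 9.79 TPM and H2-DMb1 at 2.91, 2.83 and 6.09 TPM. H2-Oa and H2-Ob, the chains of the DM inhibitor DO, stood at 35.6, 33.4 and 43.8 TPM and at 44.99, 63.3 and 39.0 TPM. Cd74, H2-DMa, H2-DMb1 and H2-Oa were lowest in replicate 2, where H2-Ob was highest. In H2-Ob, coding transcripts held 54.0 ± 1.49% and retained-intron transcripts 39.6 ± 6.58% of the TPM (SD, n = 3), while coding transcripts held 96.6% of H2-DMa and 99.4% of Cd74 TPM.

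H2-DMb1 and H2-DMb2 are near copies that differed at 32 of 783 coding bases (95.9% identity) and shared 13.7% and 13.5% of their 100-base stretches with each other. Of those 32 differences, 17 fall in the 60 coding bases printed here with capitals at the differing letters.
H2-DMb1, coding bases 208 to 267: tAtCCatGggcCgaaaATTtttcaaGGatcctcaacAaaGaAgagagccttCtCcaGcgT
H2-DMb2, coding bases 208 to 267: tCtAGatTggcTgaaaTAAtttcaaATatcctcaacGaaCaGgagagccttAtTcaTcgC

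Markers of cells that make class II were measured beside these genes. In bulk RNA, fewer cells of a type and less RNA per cell cannot be told apart. Of 11 B cell markers, 6 were detected and 7 were lowest in replicate 2. Cd79a stood at 17.5, 8.05 and 15.8 TPM, Pax5 at 1.73, 0.76 and 1.75 TPM and Ebf1 at 3.51, 0.75 and 3.35 TPM. The other 4 were lowest in replicate 3, namely Ms4a1 at 13.0, 4.81 and 4.16 TPM, Cr2 at 3.10, 1.70 and 0.85 TPM, Fcer2a at 3.97, 3.65 and 0.44 TPM, and Ighm at 943, 1128 and 811 TPM. Summed without the immunoglobulin genes Ighm and Igkc, the list stood at 114, 74.1 and 90.6 TPM, and with them at 1803, 1484 and 3117 TPM. Igkc, at 746, 282 and 2215 TPM, was the 1 marker of this list called with edgeR's trended dispersion (adjusted p = 7.65e-12), beside 1.31% of all genes. Against sampling noise all 11 were called, beside 65.3% of all genes.

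Monocyte and macrophage markers summed to 23.98, 9.81 and 22.1 TPM, with 3 of 8 detected, and the sum was carried by Lyz2 at 17.7, 2.38 and 15.7 TPM. Dendritic cell markers summed to 31.8, 37.8 and 22.2 TPM, with 2 of 9 detected and most of the sum in Ccr9, while Clec9a was at 0 in all libraries and Itgax was at 0 in 2. Replicate 2, with the lowest class II chains, had the lowest sums of the B cell and monocyte lists and the highest of the dendritic cell list. The last 2 sums each followed 1 gene. Lyz2 was the only 1 of the 8 monocyte and macrophage markers lowest in replicate 2. Ccr9 stood at 28.6, 34.1 and 17.8 TPM, while 3 of the 9 dendritic cell markers were lowest in replicate 2. The part of such cells in the class II levels was not tested.

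**Figure D4:**
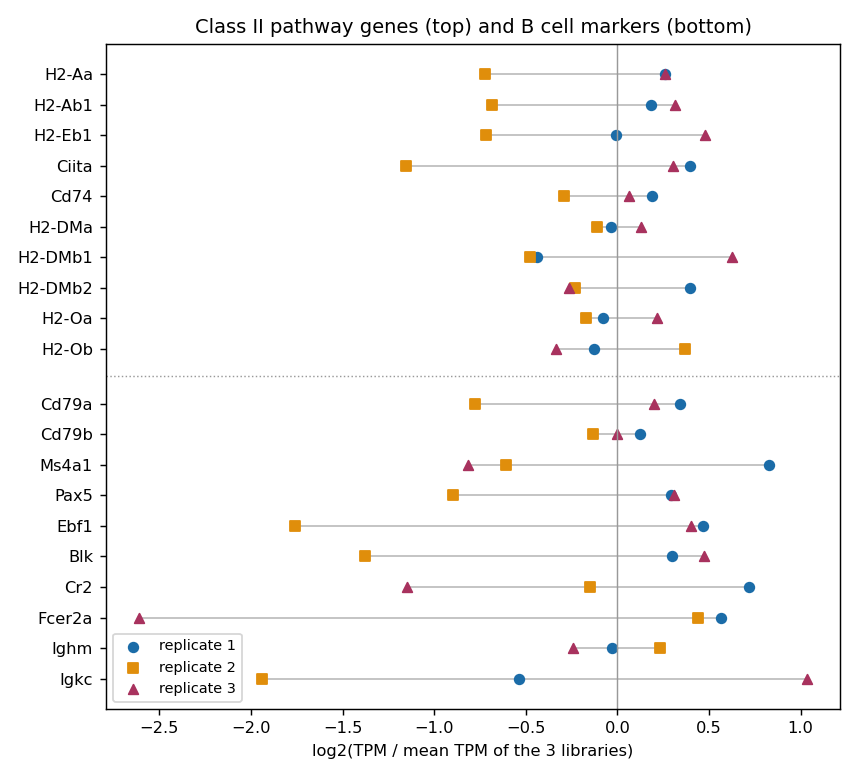
Log2 of the TPM over the 3-library mean for class II pathway genes (top) and markers from the B cell list (bottom); each point is 1 library. Replicate 2 is lowest for H2-Aa, H2-Ab1, H2-Eb1, Ciita and Cd74 and for the markers Cd79a, Cd79b, Pax5, Ebf1, Blk and Igkc. H2-Ob and Ighm are highest there, and Ms4a1, Cr2 and Fcer2a are lowest in replicate 3.

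Whether members varied between libraries by more than fragment sampling was tested with a chi-square test of each gene's counts against library sizes scaled by edgeR's TMM (trimmed mean of M-values), with Benjamini-Hochberg adjustment over 12997 genes with a mean of at least 10 counts. Of the 31 members tested, 30 were called at an adjusted p of 0.05, against 65.3% of all genes tested. H2-M3 was the exception (adjusted p = 0.789). This test calls smaller folds as counts rise, and H2-K1 was called at 1.10-fold. Members and all genes were not matched for counts, so these shares cannot be compared directly. When the variance also held edgeR's trended dispersion, estimated over all genes from the same libraries, none of the 31 was called, against 1.31% of all genes. At an unadjusted p under 0.05 there were 4, namely H2-T24, H2-Ke6, H2-Eb1 and H2-Aa, against 715 of the 12997 genes. Their adjusted p-values with edgeR's trended dispersion were 0.388, 0.880, 0.887 and 0.898. The median fold between the highest and lowest library was 1.48 over these members and 1.43 over all genes, in TMM-scaled CPM.

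In those units the largest folds among members were 3.72 for H2-DMb1, 3.69 for H2-Q2, 3.43 for Ciita and 3.34 for H2-T24. H2-Eb1 (2.34), H2-Ke6 (2.30), H2-Aa (2.21) and H2-Ab1 (2.14) came next. H2-K1 (1.10), Tapbp (1.10), H2-Q7 (1.11) and Nlrc5 (1.13) were among the steadiest. Of the 31 detected members, 9 were lowest in TPM in replicate 1, 9 in replicate 2 and 13 in replicate 3.

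The wider class I processing list held 17 genes, all detected. Psmb8, an immunoproteasome subunit, stood at 964, 893 and 701 TPM. Psme2 and Psme1, subunits of the proteasome activator PA28, stood at 782, 717 and 489 TPM and at 651, 557 and 454 TPM. The lowest of the list were the peptidase Thop1, at 2.17, 3.17 and 1.66 TPM, and Lnpep at 24.98, 27.4 and 31.6 TPM. Replicate 3 was lowest for 14 of the 17. All 17 were called against sampling noise and 0 with the trended dispersion of edgeR, where 1 had an unadjusted p under 0.05. For this list and those that follow, the shares over all genes are 65.3% against sampling noise and 1.31% with the trended dispersion, with 715 of 12997 at an unadjusted p under 0.05.

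Among 12 class II processing genes, 10 were detected. Endosomal proteases ranged widely. The highest were Ctsb at 393, 433 and 288 TPM, Ctss at 371, 295 and 238 TPM and Ctsd at 225, 301 and 236 TPM, while Ctsl stood at 2.96, 2.36 and 7.79 TPM and Ctsh at 5.25, 1.44 and 8.92 TPM. The ubiquitin ligase March1, which lowers surface class II, and the related March8 were the lowest, at 1.28, 0.53 and 1.39 TPM and at 0.31, 0.16 and 0.39 TPM. Of the 11 tested, 9 were called against sampling noise and 0 with edgeR's trended dispersion, with 1 at an unadjusted p under 0.05.

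All 20 genes of transactivator and interferon signalling were detected. Ifngr1, a chain of the interferon gamma receptor, stood at 220, 356 and 726 TPM and was highest in replicate 3. Jak1 stood at 261, 356 and 280 TPM. The lowest were Rfxap, a subunit of the X box-binding RFX complex, at 5.45, 1.58 and 3.36 TPM, and the inhibitor Socs1 at 3.12, 2.84 and 6.45 TPM. Of the 20, 17 were called against sampling noise, and 12 were lowest in replicate 3. Ifngr1 was the 1 gene of all 5 pathway lists that was also called with edgeR's trended dispersion (adjusted p = 0.000581, with 333, 494 and 1068 CPM).

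Class I-like genes outside the H2 symbols were mostly low, with 4 of 10 detected. Cd1d1, which presents lipids to NKT cells, stood at 74.9, 97.2 and 84.4 TPM, Mr1 at 16.2, 19.04 and 18.3 TPM and the NKG2D ligand Ulbp1 at 6.61, 9.92 and 9.18 TPM. Procr held no fragment, and Raet1e at most 1 per library. Of 5 tested, 2 were called against sampling noise and 0 with edgeR's trended dispersion, none at an unadjusted p under 0.05.

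Of 9 genes in a list of receptors, most of which read MHC molecules, 4 were detected. Cd4, the class II coreceptor, stood at 314, 421 and 244 TPM. Lilrb4a stood at 51.2, 81.1 and 41.6 TPM, and Lag3, an inhibitory receptor that binds class II, at 23.7, 21.4 and 20.2 TPM. Klra7 held 0, 1 and 0 fragments and Klrc2 at most 0.16 TPM. Of 5 tested, 4 were called against sampling noise and 0 with edgeR's trended dispersion, none at an unadjusted p under 0.05.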

How the data were processed

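PolyA-selected RNA of 1 biological replicate was sequenced in 3 libraries, with RNA fragments of 100 to 300 bp, per the labels. The main deposited gene and transcript tables hold expected (estimated) counts and TPM on mm10 with GENCODE release M21, computed from transcriptome alignments, per the file headers and notes. They also hold each transcript's percent of its gene's TPM and posterior SDs, per the file headers. A second deposited transcript table holds estimated counts and TPM made from the read files. A deposited gene table from another count holds whole-number counts on release M4, matched by gene ID for 44 of the 52 members. Neither labels nor headers name the programs. No scaling between libraries was stated.

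Members and lists were chosen with earlier results of these data known. Genes named are members with a mean of at least 1 TPM, all class II members and both transactivators, transcripts with at least 10% of the TPM of a gene of at least 10 TPM, and of each pathway list the 3 highest and 2 lowest and any called with the trended dispersion. Some genes that fall under these rules are not reported here. The M4 counts were divided by coding bases and scaled to a fixed total, as TPM are. Whether those counts were limited to coding bases was not tested. In replicate 1 their median ratio to the main counts was 0.814 for genes with up to 25% coding exon bases. It was 1.85 for genes with over 75%. Fragments outside coding bases may therefore enter the levels per coding base. Expected counts were rounded and tested with R 4.3.3 and edgeR 4.0.16. DESeq2 1.42.0 gave other size factors. The test was tried on simulated data with a lower dispersion than the trended values fitted for the members. That trial therefore does not show how the test performs on these data. Coding sequences were aligned with Biopython 1.88, and other work used Python 3.11.15. P-values measure the spread between these libraries, which may be technical.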

Additional observations from a re-analysis of the deposited data

How the results depend on the processing

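Class sums moved with the table's scale. In the second table a short transcript of Gm29013, of 237 bases, took 22.03%, 18.8% and 11.4% of all TPM, and the class Ia, Ib and II sums were 4557, 1686 and 83.9 TPM. With posterior mean TPM the class Ia and Ib sums were 7324 and 2456. Counts per coding base gave class Ib and II sums of 3263 and 228. With coding transcripts alone, a choice made after seeing the data, the class Ia and Ib sums were 6183 and 2481 TPM. Models typed as polymorphic pseudogene, such as those of H2-Q5 and H2-T10, were counted as coding there. The class Ia share was 72.9% in the second table and 71.3% with coding transcripts alone. The H2-K1 share was 57.9% in the second table, 42.7% per coding base and 41.5% with coding transcripts alone. The log2 ratio of B2m to heavy chains was -0.51 per coding base and -0.43 with coding transcripts alone, that of Tap1 to Tap2 was 2.66 with coding transcripts alone, and that of H2-Aa to H2-Ab1 was 0.0111 with posterior mean TPM. With edgeR's trended dispersion 0 members and 1 pathway gene were called, in place of 30 and 49.

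Leaving out 1 library at a time gave 20 to 29 members and 28 to 44 pathway genes called against sampling noise, the lowest count in each being without replicate 3. Over all genes 51.5%, 53.9% and 31.9% were called without replicates 1, 2 and 3. It left 31 members detected each time, and moved no named member's level by over 1.5 times. The sums stayed within 8724 to 9446, 2922 to 3116 and 130 to 181 TPM for class Ia, Ib and II. Across the settings run, no log2 ratio changed sign when averaged over the libraries used. Single libraries did change sign. With posterior mean TPM the log2 ratio of H2-Aa to H2-Ab1 was 0.128, -0.0577 and -0.0369 in replicates 1, 2 and 3. That of H2-Q7 to H2-Q6 changed sign in replicate 3, as given above. No paired analysis was possible because there is 1 group. The depth limits the members at or under 3 counts, for which 0 and low levels could not be told apart.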
